A study of Rattus norvegicus with 18 samples.

Results

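Rsad2, the antiviral enzyme viperin, lost nearly all of its signal in the rat femur after fracture, and the data below follow it beside 5 other genes that interferons induce: Mx1, Mx2, Oas1a, Irf1 and Gbp2. These 6 genes were read by 8 of the 8740 probe sets tested. Rsad2 was chosen by its own measured signals, which were deeply lost after fracture. Its changes over the weeks are therefore given as a description with no test. Its differences between ages carry p-values, but they use arrays with the same loss and serve only as a description. The other 5 genes were chosen as interferon-induced genes, and their changes were tested.

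Female Sprague-Dawley rats were young (6 weeks of age at fracture), adult (26 weeks) or older (52 weeks), and their mRNA was read without fracture (0 time) and at 5 times after a mid-shaft fracture of the femur held by an intramedullary rod. These were 0.4 week (3 days in the labels), 1, 2, 4 and 6 weeks. There was 1 array for each age and time point, 18 in all, with RNA of 2 rats pooled on each, and the arrays of the 3 ages stand as replicates for each time point. The tissue was the middle part of the femur, with callus, cortical bone and marrow elements, in which fewer cells of a type and less RNA per cell cannot be told apart. Signals are in arbitrary units of fluorescence, scaled by the authors to an average of 500 per array. The median signal per array was 151 to 189. The Gapdh 3′ to 5′ signal ratio, a measure of how intact the RNA was, was 3.48 on the young 4-week array and 6.57 on the young 6-week array, against 1.15 to 1.83 on the other 16 arrays.

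Interferons are secreted proteins that warn cells of viruses and steer immune cells. Type I interferons (alpha and beta) bind a receptor on nearly every cell and, through the kinases Jak1 and Tyk2, switch on genes that carry an interferon-stimulated response element in their promoters. Interferon-gamma, made by T lymphocytes and natural killer cells, acts through a receptor of its own on genes that carry a gamma-activated sequence. Rsad2 makes a nucleotide analogue that blocks viral RNA synthesis; the rat gene was also cloned under the name Best5 as an interferon-induced gene of bone-forming cells. Mx1 and Mx2 are dynamin-like GTPases that trap viral particles. Oas1a makes the messenger that activates RNase L, an enzyme that cuts RNA. Irf1 is a transcription factor induced by interferon-gamma, and Gbp2 is a GTPase that, as known from the mouse, acts on the membranes around intracellular parasites and bacteria.

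The promoters show whether the 6 genes share these elements. RefSeq windows of 300 bases, from 250 before to 50 after the start of transcription on build GRCr8, were on hand for 5 of the 6 genes (not Mx2). Both strands were searched for the core of the interferon-stimulated response element, GAAANNGAA (TTCNNTTTC on the other strand), which occurs in 9.71% of the 33469 promoters in the table, and for the gamma-activated sequence, TTCNNNGAA, which reads the same on both strands and occurs in 8.87% of them. Rsad2 (chr6:48788071-48788370, minus strand) had 1 response element core, beginning 146 bases before the start. Oas1a (chr12:41330216-41330515, plus strand) had 2 overlapping cores, the first beginning 41 bases before the start, and 1 gamma-activated sequence beginning 199 bases before it. Gbp2 (chr2:234005477-234005776, plus strand) had 1 core, beginning 30 bases before the start. Irf1 (chr10:38417685-38417984, plus strand) had 1 gamma-activated sequence, beginning 142 bases before the start, and no core. Neither motif was found in the Mx1 window (chr11:50294557-50294856, minus strand). Such a match is a run of letters and not a measured site. The 4 promoters with a match follow, 5′ to 3′, with the matches in capitals.
Rsad2: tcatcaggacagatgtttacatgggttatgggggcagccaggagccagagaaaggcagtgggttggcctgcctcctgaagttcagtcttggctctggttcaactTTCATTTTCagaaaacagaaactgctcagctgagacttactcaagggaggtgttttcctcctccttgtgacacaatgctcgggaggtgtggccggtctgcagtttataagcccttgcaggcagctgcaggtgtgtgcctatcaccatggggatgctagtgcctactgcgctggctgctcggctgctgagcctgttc
Oas1a: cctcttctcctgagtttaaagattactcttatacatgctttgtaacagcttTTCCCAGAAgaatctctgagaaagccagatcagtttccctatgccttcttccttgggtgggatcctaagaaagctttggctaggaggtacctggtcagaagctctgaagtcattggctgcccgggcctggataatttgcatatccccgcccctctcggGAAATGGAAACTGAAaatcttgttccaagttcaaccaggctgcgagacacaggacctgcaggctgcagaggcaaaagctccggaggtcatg
Gbp2: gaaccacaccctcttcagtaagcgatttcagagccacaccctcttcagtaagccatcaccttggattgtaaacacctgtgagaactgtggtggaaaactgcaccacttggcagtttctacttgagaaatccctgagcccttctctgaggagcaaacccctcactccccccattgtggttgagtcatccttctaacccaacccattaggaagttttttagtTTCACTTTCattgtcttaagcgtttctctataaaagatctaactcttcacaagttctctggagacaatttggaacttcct
Irf1: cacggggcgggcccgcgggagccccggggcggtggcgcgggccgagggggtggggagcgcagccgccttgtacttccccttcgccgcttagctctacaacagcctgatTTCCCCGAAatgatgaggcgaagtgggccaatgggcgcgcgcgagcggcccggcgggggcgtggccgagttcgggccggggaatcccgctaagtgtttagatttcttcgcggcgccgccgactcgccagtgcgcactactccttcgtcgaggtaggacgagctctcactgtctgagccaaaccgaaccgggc

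Rsad2 had the widest range of the 6 genes, with signals of 45.1 to 11987. In the order of the 6 time points, from the control to the last, its signal in young rats was 7886, 224, 305, 3548, 5671 and 9216. Adult rats had 7983, 125, 273, 117, 3402 and 2000 in the same order. Older rats had 11987, 45.1, 59.8, 192, 2909 and 2694. All 6 arrays of 0.4 and 1 week lay far below the 3 controls. By 2 weeks only the young array had left this low range.

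The 3 arrays of 0.4 week averaged 131 ± 89.3, against 9285 ± 2340 for the 3 controls (SD, n = 3 each). The mean log2 difference was -6.40, which is 84.2-fold lower, and it was the fourth lowest among the 8740 probe sets at that week. Over the next 4 time points the difference from 0 time was -5.74, -4.40, -1.25 and -1.31. A second probe set for the same transcript gave -5.54 at 0.4 week, then -4.92, -4.12, -1.37 and -1.43. Averaged over the ages, both probe sets were lowest at 0.4 and 1 week and nearer to the control at 4 and 6 weeks. The 2-week average joins unlike ages, with -1.15 in young rats beside -6.09 in adult and -5.97 in older rats.

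**Figure D1:**
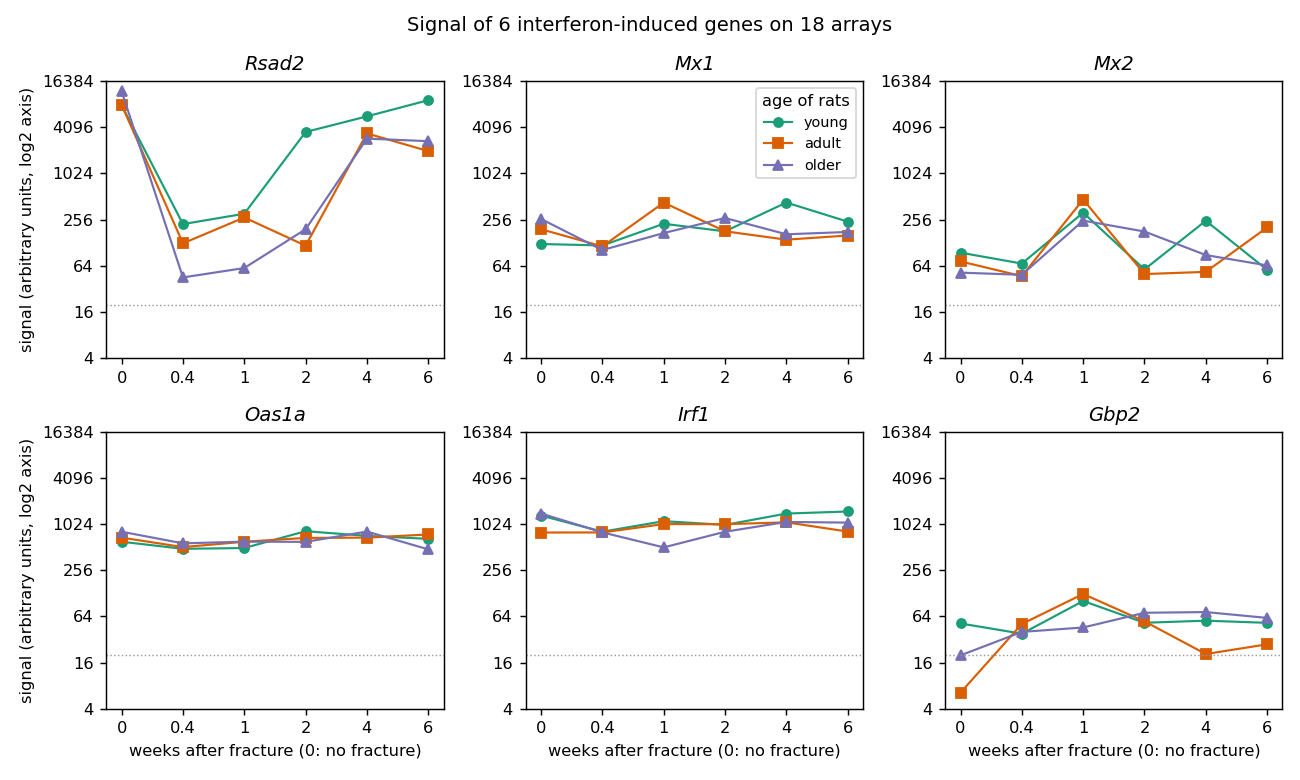
Signal of each of the 6 genes (vertical axis, arbitrary units, log2 axis) at each time point (horizontal axis, weeks after fracture) on 18 arrays, with 1 line per age and a dotted line at the floor of 20. Rsad2 drops to between 45.1 and 305 at 0.4 and 1 week, against 7886 to 11987 in the controls, while Oas1a stays between 479 and 826.

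The return of Rsad2 was described on the 12 arrays of 1, 2, 4 and 6 weeks, with no test, since the early arrays carry the loss for which the gene was chosen. Signals were 2000 to 9216 at 4 and 6 weeks, against 59.8 to 3548 at 1 and 2 weeks, and the groups overlapped only through the young 2-week array. The mean of 4 and 6 weeks exceeded that of 1 and 2 weeks by 3.79 ± 0.62 on the log2 scale (SE), or 13.8-fold, and by 3.12 ± 0.73 in the second probe set. Without the young arrays of 4 and 6 weeks, which had the high Gapdh ratios, the difference was 4.29. Of all probe sets, 9.19% were called higher and 6.92% lower in this comparison by limma. None of the other 5 genes was called between the late and the early weeks in either direction, and none had an unadjusted p under 0.05.

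By 6 weeks Rsad2 in young rats stood at 117% of the control of the same age, where adult rats had 25.1% and older rats 22.5%. The young value rests on the array with the highest Gapdh ratio, 6.57. At 2 weeks the same shares were 45.0%, 1.47% and 1.60%. Over the 5 later time points the signal was lower in older than in young rats by 2.32 on the log2 scale (SE 0.63, limma, adjusted p = 0.219) and lower in adult than in young rats by 1.77 (adjusted p = 0.498). Here the 5 time points stood as the replicates of an age, so SE and p measure a spread over time points and not between arrays of the same age and time. At each of these time points the young array was the highest of the 3 in the brighter probe set. In the second probe set the adult array was higher at 1 week, with 361 against 201 in young rats. The difference between older and young rats did not pass the threshold, and no probe set on the array did, as 0.0% of 8740 were called in this comparison and 1103 had an unadjusted p under 0.05. Of the 6 genes, Rsad2 and Irf1 were among those 1103. Without the young arrays of 4 and 6 weeks, the log2 difference of Rsad2 between older and young rats was -2.74 (limma, adjusted p = 0.522). When each age was set against its own control, the change of Rsad2 was 2.93 log2 units deeper in older than in young rats (SE 1.54, limma, adjusted p = 0.321). Like the comparisons of ages above, this one used arrays that carry the loss for which Rsad2 was chosen, and its p-value is given only as a description. None of the 6 genes passed any of these tests of unequal change, which rest on 1 control array per age; 6.59% of all probe sets passed for older against young, 6.97% for adult against young and 4.14% for older against adult rats.

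No other member showed a loss of that size at 0.4 week, as the differences in their brightest probe sets ran from -0.72 to 0.64. None of the 5 was called lower at 0.4 week by limma, where 17.1% of all probe sets were, and 1 of them, Oas1a, had an unadjusted p under 0.05. None was called lower at 1, 2, 4 or 6 weeks, where the shares of all probe sets were 20.4%, 10.3%, 1.77% and 0.32%. Mx2 and Gbp2 were called higher at 1 week, a week at which 14.6% of probe sets rose. No member was called higher at 0.4, 2, 4 or 6 weeks, against 14.1%, 9.49%, 3.31% and 0.561% of all probe sets. None of the 5 passed the moderated F test over the 5 later time points, which 26.4% of all probe sets passed.

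Mx1 had signals of 118, 114 and 103 in young, adult and older rats at 0.4 week, against 123, 192 and 261 at 0 time. All 3 arrays of 0.4 week were thus below all 3 controls, by 0.72 on the log2 scale (SE 0.46, limma, adjusted p = 0.254), which is 1.64-fold and within the spread of the arrays. The highest Mx1 signals were 427 in young rats at 4 weeks and 426 in adult rats at 1 week, and the older rats never exceeded 269. No week of Mx1 was called against 0 time.

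Mx2 had its highest signal at 1 week in each age. Young, adult and older rats had 315, 468 and 248 at that week, against 94.9, 72.9 and 52.1 at 0 time, with no overlap. Mx2 rose by 2.22 on the log2 scale at 1 week (SE 0.68, limma, adjusted p = 0.0274), or 4.66-fold, and its difference at 0.4 week was -0.40 (adjusted p = 0.70). Single arrays were again raised later, with 179 in older rats at 2 weeks, 248 in young rats at 4 weeks and 202 in adult rats at 6 weeks, while the other arrays after 1 week had 49.9 to 88.3. The call at 1 week did not hold with any 1 age left out.

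Gbp2 was the dimmest of the 6 genes, at 6.5 to 126, with 2 of the 3 controls below the floor of 20. Young, adult and older rats had 102, 126 and 45.9 at 1 week, against 51.8, 6.5 and 19.9 at 0 time. The older array of 1 week lay below the young control, so the groups overlapped. Gbp2 rose by 1.61 at 1 week (SE 0.52, limma, adjusted p = 0.0351). The floor sets this size, which was 2.15 with a floor of 1 (adjusted p = 0.0147) and 0.89 for log2(signal + 50) (adjusted p = 0.0153), and this call too did not hold with any 1 age left out.

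Oas1a and Irf1 kept a moderate signal throughout. Oas1a had 487, 513 and 574 in young, adult and older rats at 0.4 week, against 602, 681 and 813 at 0 time, a difference of -0.41 (SE 0.18, limma, adjusted p = 0.113). Irf1 had 814, 796 and 797 at 0.4 week, against 1321, 794 and 1403 at 0 time, and the adult pair hardly differed. The Irf1 difference was -0.50 (SE 0.27, adjusted p = 0.181) in the brighter probe set and 0.65 (SE 0.47, adjusted p = 0.317) in the dimmer one, whose signals were 46.2 to 268. The direction for Irf1 therefore depended on the probe set.

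The wider interferon system was examined through 4 lists of genes, of which 47 genes besides Rsad2 were measured. At 0.4 week 9 of the 47 rose and 8 fell (19.1% and 17.0%), close to the shares of all probe sets given above, and the median difference was -0.08, against -0.13 over all probe sets. At 1 week 13 rose and 6 fell (27.7% and 12.8%), and the median was 0.27, against -0.13 over all probe sets. Of all probe sets 14.6% rose and 20.4% fell at that week. At 2 weeks 8 rose and 2 fell (17.0% and 4.26%, against 9.49% and 10.3% of all probe sets). At 4 weeks 6 rose and none fell (12.8% and 0.0%, against 3.31% and 1.77%), and at 6 weeks 2 rose and none fell (4.26% and 0.0%, against 0.561% and 0.32%), where at an unadjusted p under 0.05 the numbers that fell were 2 at 4 weeks and 1 at 6 weeks. Between late and early weeks 10 were higher and 2 lower (21.3% and 4.26%, against 9.19% and 6.92%). These numbers depended on which age was left out. The shares of all probe sets in those fits, which have fewer arrays, are not given here. A loss of calls in the lists therefore cannot be told apart from a general loss of calls. Without the adult or without the older rats 1 rose and 0 fell at 0.4 week, 3 rose and 0 fell at 1 week, and 0 were called by limma in either direction at 2, 4 and 6 weeks. Genes with an unadjusted p under 0.05 by limma were also counted, in the order of the 5 later time points. With the adult rats left out, the rises numbered 9, 14, 9, 15 and 5, and the falls 12, 10, 5, 1 and 0. Leaving out the older rats instead gave 7, 12, 8, 10 and 8 rises, beside 6, 5, 2, 0 and 0 falls. Without the young rats 5 rose and 6 fell at 0.4 week, 9 rose and 5 fell at 1 week, 8 rose and 4 fell at 2 weeks, and 7 and 6 rose at 4 and 6 weeks. Without the adult or without the older rats, the calls of Gch1, Irf7, Ifitm3 and Il15 at 0.4 week were lost (adjusted p of 0.0548 to 0.154), and that of Il18 held.

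Among the antiviral effectors, 9 genes besides Rsad2 were measured, and 2 rose and none fell at 0.4 week (22.2% and 0.0%, against 14.1% and 17.1% of all probe sets; 1 had an unadjusted p under 0.05 in the lower direction). Ifitm3, a membrane protein that blocks viral entry, had 4075, 5458 and 5036 in young, adult and older rats at 0.4 week, against 2482, 1369 and 1228 at 0 time. It rose by 1.58 (adjusted p = 0.00321) at 0.4 week and by 1.59 (adjusted p = 0.00361) at 1 week. Eif2ak2, the kinase PKR that stops protein synthesis on sensing double-stranded RNA, rose by 0.87 at 1 week (adjusted p = 0.00154). Lgals9, the lectin galectin-9, rose by 0.52 at 0.4 week (adjusted p = 0.0363) and by 0.71 at 2 weeks (adjusted p = 0.0189), and its dimmer probe set gave 0.01 at 0.4 week. The lowest difference among these 9 genes at 0.4 week was that of Mx1, -0.72, against -6.40 for Rsad2.

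Of 18 genes that interferon-gamma induces, 2 rose and 4 fell at 0.4 week, and 5 rose and 4 fell at 1 week. The shares that fell, 22.2% at both weeks, were near the 17.1% and 20.4% of all probe sets, and the shares that rose were 11.1% and 27.8%, against 14.1% and 14.6%. The falls included Gch1, which makes the first step of tetrahydrobiopterin synthesis. Its signals were 224, 205 and 179 in young, adult and older rats at 0.4 week, against 2082, 1014 and 2224 at 0 time, without overlap. Gch1 fell by 3.05 on the log2 scale (SE 0.49, limma, adjusted p = 0.00144), and a further probe set fell by at least 3.43, as it was below the floor of 20 on all 6 arrays of 0.4 and 1 week. Another 2 probe sets gave -0.86 and -0.32 and were not called. Tap2, a subunit of the peptide pump of antigen presentation, fell by 0.94 at 1 week (adjusted p = 0.0113). Vcam1, an adhesion molecule for leukocytes, fell by 0.95 at 0.4 week (adjusted p = 0.00231) and then rose above the control by 1.06 at 4 weeks (adjusted p = 0.013), while its dimmer probe set gave -0.59 at 0.4 week (adjusted p = 0.0709).

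Other genes of that list rose. Icam1, another adhesion molecule, rose by 1.94 at 1 week (adjusted p = 0.00209). Cd74, the chaperone of class II antigen presentation, rose by 0.96 at 0.4 week (adjusted p = 0.0463) and by 2.21 at 4 weeks (adjusted p = 0.00966), with 6991, 4302 and 6162 in young, adult and older rats at 4 weeks, against 2167, 889 and 968 at 0 time. Serping1, the inhibitor of complement C1, rose by 2.03 at 4 weeks (adjusted p = 0.0475). Cxcl10, a chemokine of dim signal named here after its values were seen, had 232, 434 and 114 at 1 week, against 44.2, 57.7 and 63.4 at 0 time, and rose by 2.05 (adjusted p = 0.00568), at the same week as Mx2.

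Of the interferons and the cytokines that induce them 5 genes were measured. Il18, which drives interferon-gamma release, had 605, 732 and 667 in young, adult and older rats at 0.4 week, against 199, 144 and 111 at 0 time, and rose by 2.18 (adjusted p = 6.54e-05). Il15, a growth factor of natural killer cells, fell by 1.16 (adjusted p = 0.00659), and its 2 further probe sets gave -1.12 (adjusted p = 0.0173) and -0.57 (adjusted p = 0.348). The probe sets for Ifnb1 and Ifng, the genes of interferon beta and gamma, averaged 45.6 and 60.8 and passed no test over the weeks (F test, adjusted p = 0.655 and 0.514).

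Among 15 receptor and signalling genes, 4 rose and 3 fell at 0.4 week (against 14.1% and 17.1% of all probe sets). Socs3, a feedback inhibitor of cytokine signalling, rose by 2.20 at 1 week (adjusted p = 0.01). Ptpn6, a phosphatase of blood cells, fell by 0.83 at 0.4 week (adjusted p = 0.0343) in its brighter probe set and rose by 1.97 in its dimmer one (adjusted p = 0.03). Irf7, the factor that amplifies type I interferon, did not pass the F test (adjusted p = 0.0603) and is named because its fall was the deepest of the list. It had 376, 175 and 326 in young, adult and older rats at 0.4 week, against 917, 1604 and 3285 at 0 time, and fell by 2.61 (SE 0.61, limma, adjusted p = 0.00902), and its other probe set fell by 2.70 (adjusted p = 0.00824). Irf7 was back at 1753 and 1931 in young and adult rats by 6 weeks and remained at 534 in older rats.

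**Figure D2:**
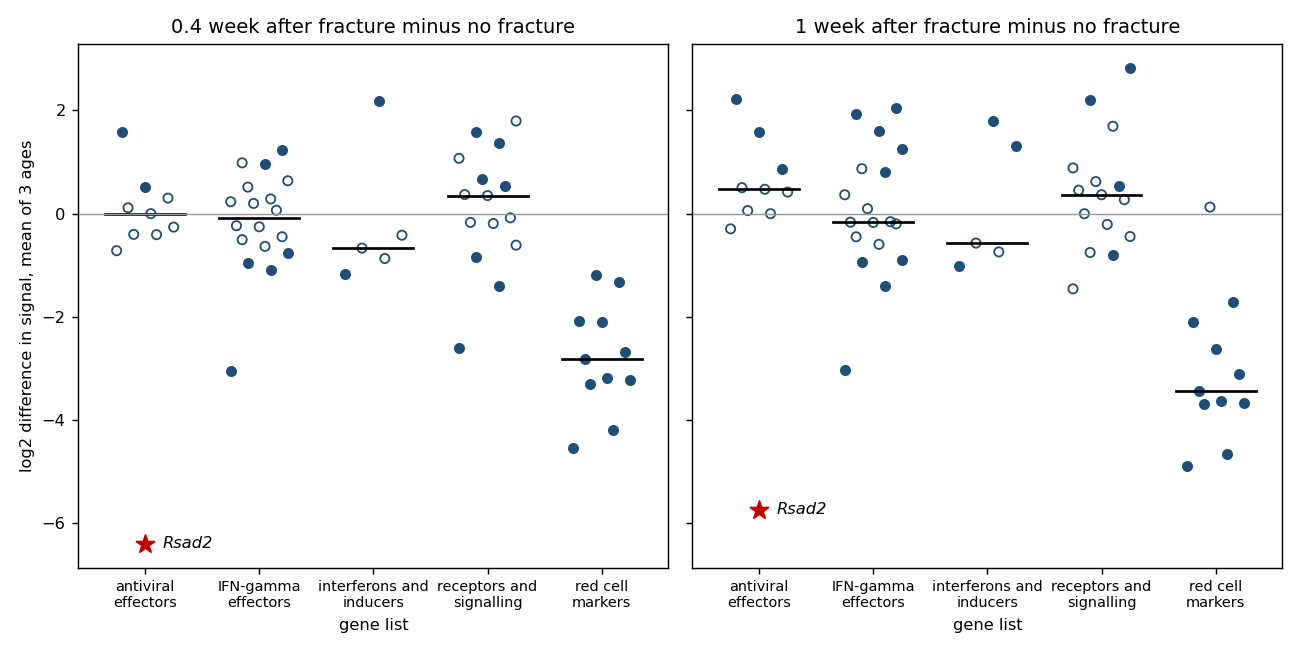
Log2 difference in signal (vertical axis, mean of 3 ages) at 0.4 and 1 week after fracture minus no fracture, for each gene of 4 interferon lists and of the red cell list (horizontal axis). Filled points passed limma at an adjusted p of 0.05, open points did not, bars are medians without Rsad2, and the star is Rsad2, at -6.40 and -5.74. The medians of the interferon lists lie within 1 log2 unit of 0, and that of the red cell list lies at -2.82 and -3.43.

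The marrow contains developing red cells, granulocytes and lymphocytes, and lists of their markers were set beside Rsad2. Erythroid genes are those of hemoglobin and its heme, of the red cell membrane and of the factors that steer red cell formation. Of 11 measured, all 11 fell at 0.4 week, 10 fell a few days later at 1 week, and 8 were still lower at 2 weeks, against 17.1%, 20.4% and 10.3% of all probe sets. Their median differences were -2.82, -3.43 and -1.97. Other lists fell too at 0.4 week, with 17 of 20 skeletal muscle genes lower (median -2.46) and 1 higher. Of neutrophil and eosinophil genes 7 of 14 fell and 1 rose. The falls were 4 of 6 megakaryocyte and platelet, 5 of 12 mast cell and 3 of 5 B lymphocyte genes, with 0 higher. Of T lymphocyte and natural killer genes 3 of 19 fell and 1 rose, and of monocyte and macrophage genes 9 of 15 rose and 0 fell. Slc4a1, which exchanges anions across the red cell membrane, fell by 4.53 at 0.4 week (adjusted p = 0.00177), and Alas2, the first enzyme of heme synthesis in red cells, fell by 4.19 (adjusted p = 0.00165). Between the late and the early weeks 10 of the 11 were higher, against 9.19% of all probe sets, with a median of 2.10, and Tfrc, the transferrin receptor, was the exception (0.71, adjusted p = 0.134). The summed signal of the 11 genes ran, in the order of the 6 time points from the control onwards, over 78946 to 111532, 11903 to 21019, 5099 to 12661, 13993 to 70490, 49216 to 75258 and 49719 to 98856, and no gene of the list was below the floor on every array. The part of red cell content in the change of Rsad2 was not tested.

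The ages could also be set side by side. The mean of the erythroid genes at 2 weeks differed from the control of the same age by -0.21 log2 units in young rats, against -2.27 in adult and -2.79 in older rats. Rsad2 at that week, as given above, was likewise nearest to its control in young rats. Slc4a1 had 3204 in young rats at 2 weeks and 182 and 235 in adult and older rats. At 6 weeks the erythroid mean was 0.11 above the control in young rats, and it differed by -0.28 in adult and -0.99 in older rats, and Rsad2 differed by 0.22, -2.00 and -2.15. The change of Rsad2 in its brighter probe set was larger in size than that of the list mean in all 15 pairs of age and time point. Its second probe set gave -0.07 and 0.02 in young rats at 2 and 4 weeks, smaller in size than the -0.21 and -0.13 of the list mean. As Rsad2 was chosen for its deep loss, a larger change than that of a list mean was partly given beforehand. The mean of the 9 other antiviral effectors stayed within 0.96 log2 units of its control at every age and week.

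**Figure D3:**
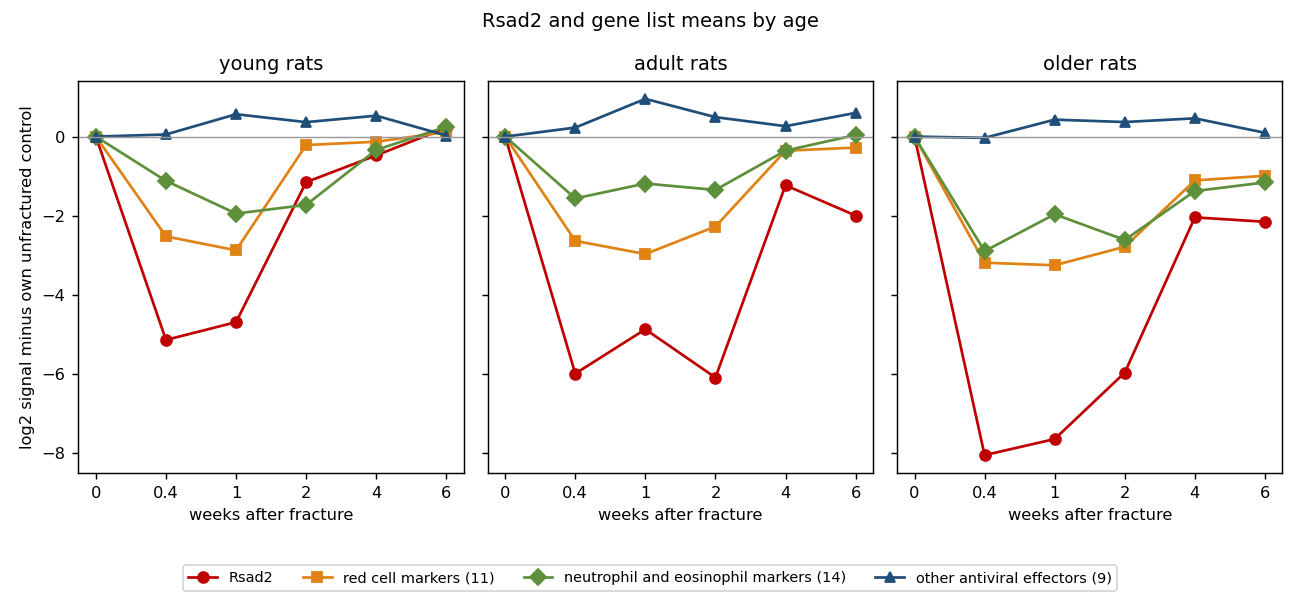
Log2 signal minus that of the age's own unfractured control (vertical axis) by weeks after fracture (horizontal axis) in young, adult and older rats, for Rsad2 and for the mean of 3 gene lists. At 2 weeks Rsad2 and the red cell markers are nearest to their controls in young rats, at -1.15 and -0.21. The neutrophil and eosinophil markers are at -1.73 there. The other antiviral effectors lie between -0.03 and 0.95, highest in adult rats at 1 week.

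Likeness was described by Pearson's r of log2 signals with Rsad2 over the 18 arrays, which share time points and ages, so no p is given. The 10 genes most like Rsad2 were Slc4a1 (r = 0.966, Spearman's rho = 0.905), Alas2 (0.957), Tspan8 (0.953), Ncoa4 (0.953), Fn3k (0.951), Rhd (0.947), Nup210 (0.942), Gch1 (0.940), Atp2a3 (0.930) and Bnip3l (0.928). Slc4a1, Alas2 and Rhd, a blood group protein, belong to the erythroid list. Ncoa4 delivers ferritin for breakdown, and Bnip3l, also called Nix, clears mitochondria from maturing red cells. Gch1 was the only gene of the 4 interferon lists among the 10. After the mean of each time point was subtracted, r was 0.872 for Slc4a1, 0.910 for Fn3k and 0.799 for Gch1. Such values weigh the 2-week arrays most, where Rsad2 was 3548 in young rats against 117 and 192 in adult and older rats. The SD of its log2 signals was 2.66 at that week, against 0.34 to 1.31 at the other time points.

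The other members had a lower r with Rsad2. Over the 18 arrays r with Rsad2 was 0.248 for Mx1, -0.189 for Mx2, 0.535 for Oas1a and -0.362 for Gbp2. For Irf1 it was 0.687 in the brighter and -0.072 in the dimmer probe set. The 2 probe sets of Rsad2 itself had r = 0.983. With the means of the time points subtracted, r was 0.292 for Mx1, -0.084 for Mx2, 0.191 for Oas1a, 0.518 for Irf1 and 0.166 for Gbp2. Among the other members the closest pair was Mx1 and Mx2 (r = 0.602), followed by Mx2 and Gbp2 (r = 0.522).

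The lists were described in the same way. The median r with Rsad2 was 0.910 for the 11 erythroid genes, of which 10 had r over 0.8, as did 3.24% of all probe sets. It was 0.739 for B lymphocyte genes, 0.656 for mast cell genes and 0.627 for neutrophil and eosinophil genes. It was 0.494 for megakaryocyte and platelet, 0.410 for T lymphocyte and natural killer and -0.291 for monocyte and macrophage genes, and the median over all probe sets was 0.211. The gene most like Rsad2 in each of these lists was Cd72 (0.894) of B lymphocytes, Ms4a2 (0.875) of mast cells, the collagenase Mmp8 (0.855) of neutrophils, Gp5 (0.803) of platelets, Cd3g (0.797) of T lymphocytes and Ccr2 (0.512) of monocytes. The interferon lists had medians of -0.141 (antiviral effectors), 0.153 (interferon-gamma effectors), 0.389 (interferons and inducers) and -0.084 (receptors and signalling).

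Lists of other tissues bear on the same values. Skeletal muscle genes, which also fell after fracture, had a median r of 0.709 over all arrays and -0.089 once the time point means were subtracted, whereas the erythroid median was then 0.751. The values after subtraction rest much on the 2-week arrays, where the young array stood apart, and they were not computed without it. Bone genes had a median r of -0.371, and of these only Bglap, osteocalcin (0.714), exceeded 0.5. Fibrous matrix genes had the lowest median, -0.692. Without the 2 arrays farthest from the median of Rsad2, the older arrays of 0.4 and 1 week, the erythroid median was 0.904, and on the 15 arrays after fracture it was 0.922. B lymphocyte and mast cell genes came close to this after fracture, with medians of 0.871 and 0.861, and they had 0.365 and 0.598 once the time point means were subtracted.

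**Figure D4:**
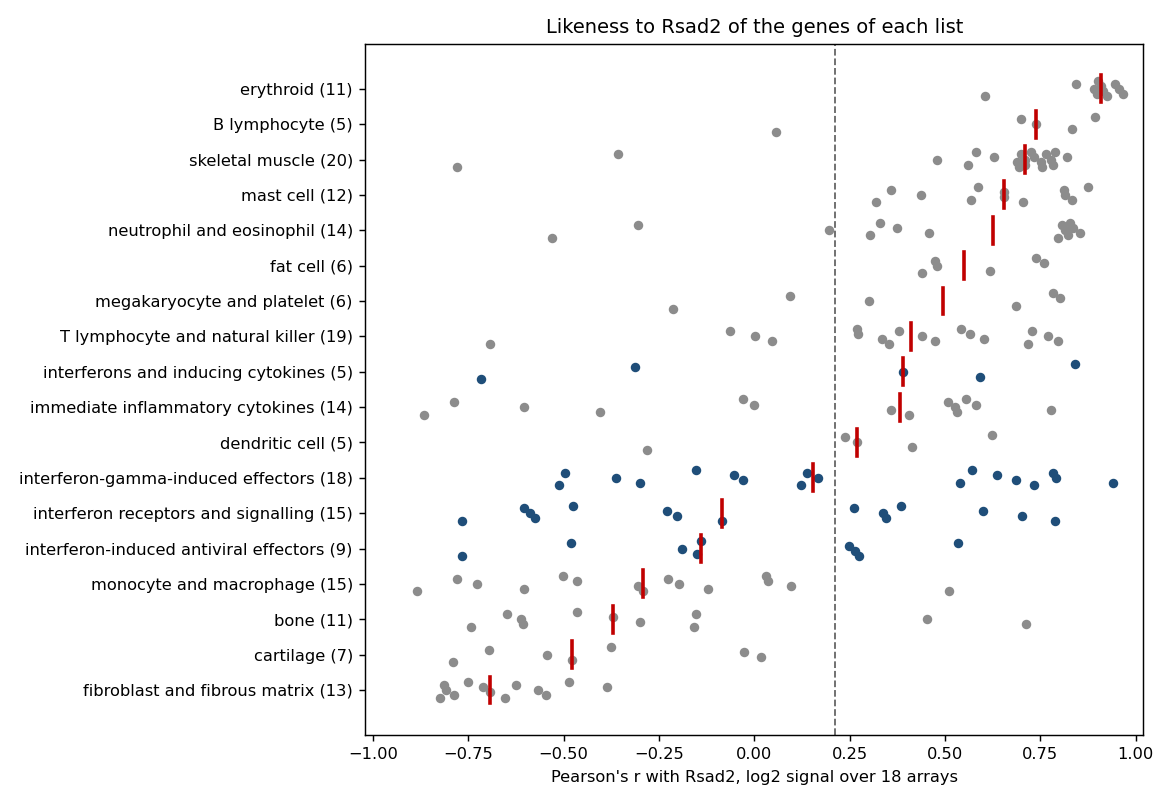
Pearson's r with Rsad2 over 18 arrays (horizontal axis, log2 signals) for each measured gene of 18 lists (vertical axis, number of genes in parentheses, Rsad2 left out). Blue points are the interferon lists, grey points the others, red bars the medians and the dashed line the median of all probe sets, 0.211; the erythroid list lies at the top, at 0.910.

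The genes most like the other members differed from one member to the next. For Mx1 they were Stat2 (r = 0.668), a factor of the type I interferon pathway, Plcb4 (0.614), Irgm2 (0.607), Irf7 (0.565) and Neb (0.534). Of these 5, Stat2, Irgm2 and Irf7 are themselves interferon-induced. For Mx2 they were Rab5b (0.683), Slfn5 (0.652), Cox7a2l (0.644), Nfkb1 (0.637) and Pdcd10 (0.637). For Irf1 they were Spn (0.798), Cfp (0.789), Ptpn1 (0.788), RT1-A (0.787), a class I antigen-presenting molecule, and Atp6v0a1 (0.787). For Gbp2 they were Aspn (0.805), Ptbp3 (0.801), Ets1 (0.784), Mmp2 (0.771) and Marcks (0.764), of which Aspn and Mmp2 are matrix genes of connective tissue. For Oas1a they were Muc3 (0.780), Cacnb1 (0.762), Col26a1 (0.747), Serpina1 (0.729) and Pik3ip1 (0.720).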

How the data were processed

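The authors pooled RNA of 2 rats per array (a Rat GeneChip of the U34 set), computed the deposited intensity values (linear signals) with Microarray Suite 5.0 and brought every array to a mean of 500. Only series 3 of the study was analysed. From 8799 probe sets 59 controls were removed. The floor was 20, signals were used as log2 values, and nothing was renormalized. Names of probe sets came from the platform annotation, updated through a RefSeq gene table (6985 of 7006 gene identifiers found), and the brightest probe set stands for a gene. The tests used limma 3.58.1 under R 4.3.3, with age and week as terms, an intensity trend and Benjamini-Hochberg adjustment over 8740 probe sets at 0.05. They were also run, after the fits of the data, on simulated data with known changes, whose outcome is not given here. Nothing states that the arrays of an age were prepared together, and p-values measure the spread between these arrays. Likeness and figures were computed in Python 3.11.15 with matplotlib 3.10.9. The number of arrays limits the precision.

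The members and lists were chosen with earlier results of these data known. By rule the text names all probe sets of the members, list genes that pass the F test with a mean signal of at least 200 (at most 8 a list), the 10 genes most like Rsad2, the 5 most like each other member, and the most similar gene of each marrow list. Cxcl10, Irf7, Ifnb1, Ifng, Tfrc, Bglap and the genes of unequal change between ages were named after their values were seen. Alternatives were a floor of 1, log2(signal + 50), quantile and median scaling, a signal minimum, no trend, no age term, and each age or week left out. Further ones were a t-test, other probe sets, the own control as baseline, and leaving out the young 4- and 6-week arrays. The t-test set the 3 arrays of a week against the 3 controls, with Benjamini-Hochberg adjustment. It was added after the data were seen and had fewer arrays than the t-tests of the paper.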

Additional observations from a re-analysis of the deposited data

Results flagged for a closer look

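By limma's test of the difference itself, the change from the own 0 time control differed between ages for 3 of the 47 interferon genes. None of them was a member. Of all probe sets, 6.59% passed this test for older against young, 6.97% for adult against young and 4.14% for older against adult rats. Each such value rests on 1 control array per age.

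Irf3, a sensor-driven factor that starts interferon production, changed by 4.07 log2 units more in older than in young rats (adjusted p = 0.000211) and by 4.01 more in adult than in young rats (adjusted p = 0.000184). Its control signals were 77.6 in older and 97.4 in adult rats, against 1507 in young rats, while its 15 arrays after fracture had 597 to 1426. Its other probe set, with signals of 34.2 to 66.8 on all 18 arrays, gave 0.32 (adjusted p = 0.777) and 0.55 (adjusted p = 0.581) for the same differences.

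Irf2, a factor that damps interferon responses, changed by -1.49 in older relative to young rats (adjusted p = 0.0165), with control signals of 48.2 in older and 20.7 in young rats, close to the floor of 20. Ptpn1, a phosphatase that acts on Jak2, changed by -0.89 in older relative to adult rats (adjusted p = 0.0295), with controls of 2344 in older and 1374 in adult rats.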

How the results depend on the processing

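Of 263 values recomputed for 23 results, 221 kept their direction and their call, or stayed within 1.5 times of a count, 40 lost their call or gave a smaller count, 1 moved and 1 reversed. Reversed was Irf1 at 0.4 week, 0.65 in its other probe set. Moved was the median r of the erythroid genes with Rsad2, 0.751 after the time point means were subtracted. The causes of these differences were not tested.

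With 1 age left out, the log2 difference of Rsad2 between late and early weeks was 3.33 to 4.29, and it was 4.29 without the young arrays of 4 and 6 weeks. Dropping the replicate block (no age term) leaves this difference at 3.79 by design, as each age has 1 array per time point, and could change only its SE. The labels give no pairing beyond age. The fall of Rsad2 at 0.4 week was -7.02 to -5.57 with 1 age left out. The number of other members called higher at 1 week was 0 with any 1 age left out and 0 with the t-test. It was 0 with a mean signal of at least 200, which removes both genes, and 1 without the young arrays of 4 and 6 weeks.

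Of the 47 interferon genes, 0 to 6 were lower at 0.4 week with 1 age left out, 5 with scaling to the median and 2 with the t-test. The number higher was 1 to 5 at 0.4 week and 3 to 9 at 1 week with 1 age left out, and 1 and 0 with the t-test. Fits with 1 age left out have fewer arrays, and the shares of all probe sets called in them are not given here. Scaling to the median moved the median of all probe sets at 0.4 week to -0.02, against -0.13 as reported, and turned the direction of no member at that week. The difference of Rsad2 between older and young rats over the later weeks passed limma in none of 13 alternatives, which include the change from the own control. The lowest adjusted p by limma was 0.0527, with a mean signal of at least 200. These p-values too are only a description, as the arrays carry the loss for which Rsad2 was chosen. Signals near the floor limit Gbp2.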
